A study of Homo sapiens with 9 samples.

Results

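CD14 and 6 genes of Toll-like receptor signalling (LY96, TLR2, TLR3, TLR4, TLR6 and MYD88) were followed on 9 Affymetrix expression arrays. The cells were A549, an established line from a human lung adenocarcinoma. The 7 genes are among 19775 that the array annotation names, and they were taken by name, with every probe set annotated to exactly 1 of them, which gave 13 probe sets of 54675. The genes were chosen by measured values, with earlier results of these same arrays in view, among them the higher CD14 signal after MED23 knockdown, so their levels and differences are given as a description, with no test. The 3 si-Ctrl arrays came from cells with a control oligo, the 3 si-Med23 arrays from cells with oligos A, B and C against MED23, and the 3 si-Elk1 arrays from cells with oligos A, B and C against ELK1. All cells were grown in serum-containing medium with no other treatment, so no array reports cells given a Toll-like receptor ligand. The labels describe each knockdown oligo as a cell line of its own, so the spread within a knockdown includes the difference between oligos. The labels do not state that the si-Ctrl arrays came from separate cultures, so every p-value here reflects the spread among these arrays, part of which may be technical. The study concerns the need for MED23, a subunit of the Mediator complex of transcription, in lung cancer cells with active Ras, and ELK1 is an ETS transcription factor known to bind MED23.

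Toll-like receptors are membrane proteins that recognise molecules of microbes. TLR4 does so with LY96, also called MD-2, which holds bacterial lipopolysaccharide after CD14 has delivered it, and CD14 is best known as a surface protein of monocytes. TLR2 pairs with TLR6 or TLR1 to bind bacterial lipoproteins and TLR3 binds double-stranded RNA in endosomes. MYD88 is the adaptor that links these receptors, except TLR3, and the receptors of interleukin 1 to the IRAK kinases and NF-kB. Airway epithelial cells are known to carry several of these receptors.

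The windows just before the transcription starts of CD14, TLR4 and MYD88 are shown because one of the depleted factors, ELK1, belongs to the ETS family. These 3 members were picked after their values were seen, and others, such as TLR6, also differed between groups without overlap. The sequences are from RefSeq on build GRCh38.p14, run 5′ to 3′ on the strand of the gene and end at the base before the annotated start, and capitals mark the ETS core GGAAG or its reverse complement. The window of CD14 is on chromosome 5, chr5:140633176-140633425, minus strand. That of TLR4 is on chromosome 9, chr9:117704153-117704402, plus strand, and that of MYD88 is on chromosome 3, chr3:38138411-38138660, plus strand.
CD14: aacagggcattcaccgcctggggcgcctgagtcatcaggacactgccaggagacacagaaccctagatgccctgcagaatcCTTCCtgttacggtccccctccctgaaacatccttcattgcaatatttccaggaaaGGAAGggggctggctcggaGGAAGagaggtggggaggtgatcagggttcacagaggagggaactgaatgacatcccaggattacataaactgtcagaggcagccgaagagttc
TLR4: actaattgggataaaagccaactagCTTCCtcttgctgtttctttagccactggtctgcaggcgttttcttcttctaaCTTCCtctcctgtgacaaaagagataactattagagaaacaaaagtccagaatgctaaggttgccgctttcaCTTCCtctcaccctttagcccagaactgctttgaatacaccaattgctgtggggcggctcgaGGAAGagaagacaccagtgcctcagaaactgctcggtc
MYD88: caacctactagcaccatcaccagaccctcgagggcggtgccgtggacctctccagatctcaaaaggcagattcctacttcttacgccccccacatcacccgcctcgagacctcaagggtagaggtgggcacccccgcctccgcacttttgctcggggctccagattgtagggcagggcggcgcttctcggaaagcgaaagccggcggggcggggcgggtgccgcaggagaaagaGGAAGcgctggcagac
The ETS core occurs 3 times before CD14, 4 times before TLR4 and once before MYD88, and 65.1% of 35116 promoter windows of this length hold it on either strand. The longer ETS motif CCGGAA, whose last bases overlap the core, was found before none of the 3 genes and is in 14.5% of windows. The AP-1 motif TGANTCA lies 223 to 217 bases before the CD14 start (6.57% of windows hold it), and the IRF motif, GAAA repeated after a gap of 2 bases, lies 61 to 52 bases before that of MYD88 (3.02% of windows). The Sp1 motif GGGCGG was matched 4 times before MYD88 and once before TLR4 (42.6% of windows), while neither the kappaB nor the CArG box motif was matched before any of the 3 genes (9.96% and 1.16% of windows). All motifs were searched on both strands, and a match is a run of letters, not a measured binding site. In the windows of TLR2, TLR3 and TLR6, which are not shown, the ETS core was matched 3, 0 and 1 times.

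The deposited values are probe set signals on a linear scale, and differences are given on the scale of log2(signal + 1). The median signal of an array ranged from 64.9 to 88.2 and precision is limited by having 3 arrays per group. A level of log2 6.05, a signal of 65.4, which is the median of all probe set means, separated genes that were tested from dim genes, and 12616 genes were tested. The MED23 signal was 529.3 to 615.9 in si-Ctrl and 71.9 to 132.3 in si-Med23, and the ELK1 signal was 627 to 783 in si-Ctrl and 133.3 to 226.1 in si-Elk1, so each target was lower on every array of its own knockdown. The MED23 signal in si-Elk1 was 290 to 517.8, also below every control array. In si-Med23 the ELK1 signal was 1010.6 and 1314.9 with oligos A and B, above every control array, and 745.1 with oligo C, within the control range. Probe sets for the poly-A spikes (bacterial RNAs added before labelling) and the hybridization control probe sets were brighter in the knockdowns, and scaling on the spikes would shift every log2 difference by -1.61 in si-Med23 and by -0.64 in si-Elk1. Scaling on the hybridization controls would shift them by -0.50 and -0.18, and centring on the median by 0.23 and -0.13. All 6 epithelial markers checked (KRT7, KRT8, KRT18, KRT19, EPCAM and CDH1) had group means above the filter level in each group, and their summed signal was 62921 to 69950.8 in si-Ctrl, 84562.9 to 114811 with si-Med23 and 65664.7 to 84676.9 with si-Elk1, so it was higher in si-Med23 than in si-Ctrl without overlap. The si-Elk1 array of oligo C stood apart: its highest correlation with another array was 0.918, beside 0.927 to 0.930 for the others, and its MED23 signal of 290 was the lowest outside si-Med23. Without it the si-Elk1 differences were 1.66 for CD14, 1.62 for TLR4, 1.51 for LY96 and -0.04 for MYD88, and 265 genes in place of 537 and 0 pathway genes in place of 3 passed against si-Ctrl in limma, with 13 pathway genes at an unadjusted p under 0.05.

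Only CD14 and MYD88 of the 7 members had a mean over the 9 arrays at or above the filter level, and the other 5 were dim. Of the main probe sets, the brightest of each gene, 2 were higher (CD14 and MYD88) and 2 lower (TLR3 and TLR6) in si-Med23 than in si-Ctrl with no overlap between the groups, and 3 were higher (CD14, LY96 and TLR4) and none lower in si-Elk1. Among all 19775 named genes, dim ones included, 22.5% were higher and 20.0% lower without overlap in si-Med23, and 17.0% and 10.8% in si-Elk1. Between the knockdowns 2 members were higher (TLR2 and MYD88) and 1 lower (TLR4) in si-Med23 without overlap, beside 13.1% and 17.6% of all named genes. The members' median log2 difference was 0.48 in si-Med23 and 0.07 in si-Elk1, beside 0.03 and 0.09 for all named genes. Both knockdowns were set against the same control arrays, so their differences are not independent of each other.

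**Figure D1:**
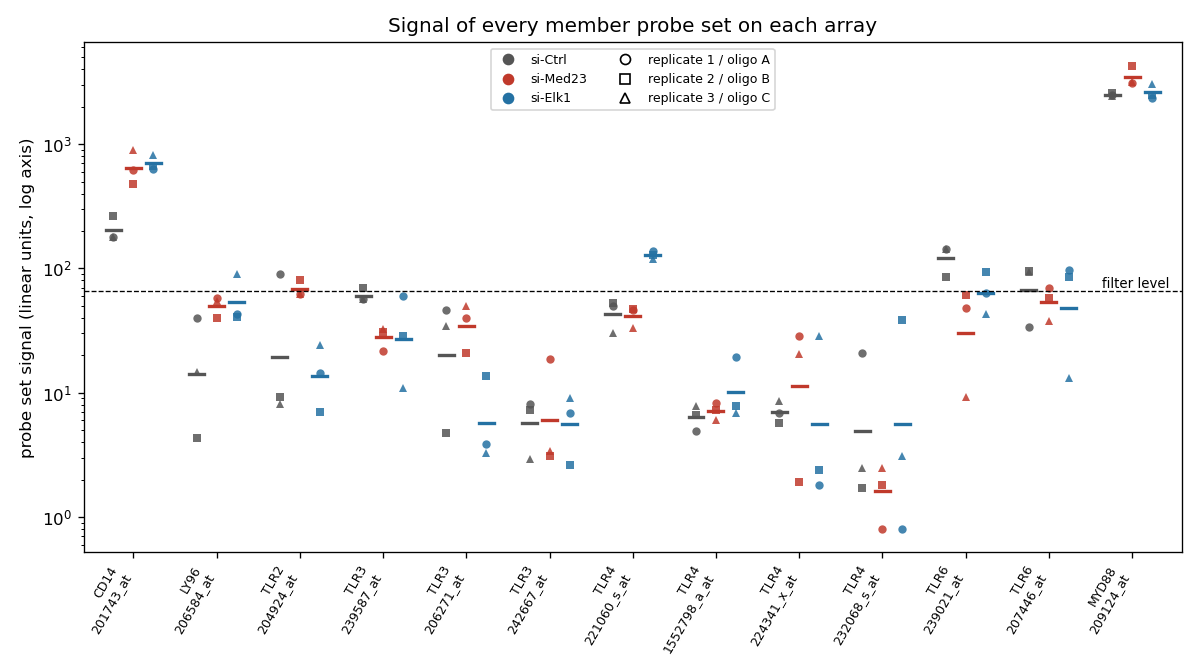
Signal of each of the 13 member probe sets (x axis) on each of the 9 arrays (y axis, linear units on a log axis); points are arrays, short bars are group means of log2 signal and the dashed line is the filter level of 65.4. CD14 and MYD88 lie above the line on every array, and TLR4 probe set 221060_s_at lies above it in si-Elk1 only among the groups.

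CD14 had a higher signal in both knockdowns. Its signal was 177.7, 266.0 and 179.9 on the si-Ctrl arrays, 620.6, 479.6 and 897.2 on the si-Med23 arrays (oligos A, B and C in that order) and 630.4, 666.0 and 810.9 on the si-Elk1 arrays. Every knockdown array lay above every control array, and the knockdowns overlapped each other. Control cells had a log2 mean of 7.68 ± 0.33 (SD, n = 3), against 9.33 ± 0.45 after MED23 depletion and 9.45 ± 0.19 after ELK1 depletion. The log2 difference from si-Ctrl was 1.65 ± 0.25 (SE, n = 3 arrays per group) in si-Med23, or 3.14-fold, and 1.77 ± 0.25 in si-Elk1, or 3.41-fold. These differences were above those of 99.3% and 99.4% of the tested genes. CD14 was chosen with its higher si-Med23 signal already known, so these ranks are a description only. The difference between the knockdowns was -0.12 ± 0.25. In such bulk RNA a change in the share of cells with the transcript and a change in its level per cell cannot be told apart. With poly-A spike scaling the CD14 difference was 0.04 in si-Med23 and 1.13 in si-Elk1, and with hybridization control scaling 1.16 and 1.59. Its size therefore depended on the scaling in both knockdowns. The value of 0.04 in si-Med23 is close to 0, below the SE of 0.25 found as deposited.

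Within each knockdown the CD14 signal was highest with oligo C, which also left the most target signal. In si-Med23 the oligos A, B and C left MED23 signals of 109.4, 71.9 and 132.3. In si-Elk1 they left ELK1 signals of 133.3, 141.1 and 226.1. In both sets the order of the oligos by CD14 was their order by remaining target. These are 3 points each, noticed after the values were seen, and were not tested.

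The 5 tested genes whose log2 signals followed that of CD14 most closely over the 9 arrays were FBXO2, a ubiquitin ligase subunit (Pearson r = 0.982), the reticulon gene RTN2 (0.981), AIG1 (0.977), the sterol transporter gene ABCG1 (0.972) and CTSC, the lysosomal protease cathepsin C (0.971). The arrays fall into the same 3 groups for every gene, so the points share that structure and the correlations are a description, with no test. ABCG1 had log2 differences of 1.65 in si-Med23 and 1.55 in si-Elk1, sizes close to those of CD14, and AIG1 of 0.54 and 0.58.

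CD14 is a monocyte marker, so the other markers of monocytes and macrophages were examined. Of 15 such genes with a probe set, 3 had a group mean above the filter level in si-Ctrl, 2 with si-Med23 and 5 with si-Elk1. Their summed signal was 620.5 to 771.9 in si-Ctrl, 574.3 to 605.8 in si-Med23 and 789.9 to 1194.6 in si-Elk1. Most of these genes were below the filter level, and the median signal of all probe sets on an array was in the same order, 77.1 to 80 in si-Ctrl, 64.9 to 69 with si-Med23 and 84.1 to 88.2 with si-Elk1. PTPRC, the pan-leukocyte antigen CD45, and SPI1 and CD163, a myeloid transcription factor and a macrophage receptor, were below the filter level on all 9 arrays. These genes do not stand for the whole list, as other markers had group means above the level, 5 of them in si-Elk1. In si-Elk1 the Fc receptor chain gene FCER1G had a log2 difference of 0.82 that did not pass (limma adjusted p = 0.0826), and the part of these markers in the si-Elk1 levels of CD14 and TLR4 was not tested.

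TLR4, the lipopolysaccharide receptor, was higher in si-Elk1 by its brightest probe set, 221060_s_at. The signal was 50.1, 52.2 and 30.1 in si-Ctrl, 46.6, 46.9 and 33.3 with si-Med23 and 138.7, 128.6 and 118.1 with si-Elk1. All si-Elk1 arrays lay above the filter level and all others below it. The log2 difference was 1.56 ± 0.26 in si-Elk1 and -0.04 ± 0.26 in si-Med23, and that between the knockdowns was -1.60 ± 0.26 (si-Med23 minus si-Elk1). With dim signals raised to the filter level the si-Elk1 difference was 0.96, and with poly-A spike scaling it was 0.92. The other 3 TLR4 probe sets were under the filter level on every array, with si-Elk1 differences of 0.61, -0.29 and 0.17 and overlapping groups, so the higher TLR4 signal rests on a single probe set. The mean over the 4 probe sets gave 0.51. TLR4 failed the filter on its mean over the arrays (log2 5.96) and was not among the tested genes.

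LY96, the partner of TLR4, was dim on 8 of 9 arrays. Its signal was 40.2, 4.3 and 14.6 in si-Ctrl, 57.9, 40.0 and 54.3 with si-Med23 and 42.8, 40.7 and 89.5 with si-Elk1, where oligo C gave the one value above the filter level. The log2 differences were 1.76 ± 0.70 and 1.87 ± 0.70, with control arrays 2 and 3 the lowest of all, and became 0 and 0.15 with signals raised to the filter level. The si-Elk1 arrays lay above the controls by as little as 40.7 against 40.2, so a difference in LY96 was not measurable at these signals.

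TLR2 and TLR6, which together bind diacylated lipoproteins, were both under the filter level by their mean over the 9 arrays. TLR2 read 89.5, 9.2 and 8.1 in si-Ctrl, 62.2, 80.9 and 62.4 with si-Med23 and 14.3, 7.0 and 24.4 with si-Elk1. The si-Med23 arrays were all above the si-Elk1 arrays, by 2.24 ± 0.87, but control array 1 lay above both knockdowns. The TLR2 difference from si-Ctrl was 1.76 ± 0.87 in si-Med23 and -0.48 ± 0.87 in si-Elk1, and without control array 1 they became 2.84 and 0.60. Raised to the filter level they were -0.05 and -0.15, since all but 2 arrays were below it.

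TLR6 was lower in si-Med23 by its main probe set, 239021_at, which read 141.9, 85.6 and 143.1 in si-Ctrl, 47.6, 61.4 and 9.2 with si-Med23 and 63.9, 93.3 and 43.1 with si-Elk1. The si-Ctrl arrays were all above the filter level and the si-Med23 arrays all below it, without overlap. The log2 difference was -1.95 ± 0.67 in si-Med23, which was -1.14 without si-Med23 oligo C and -0.87 with signals raised to the filter level. In si-Elk1 it was -0.91 ± 0.67 and the groups overlapped. The other TLR6 probe set, 207446_at, had differences of -0.32 ± 0.78 and -0.48 ± 0.78 with overlapping groups, so the probe sets agreed in sign but not in size.

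TLR3, the endosomal RNA sensor, had 3 dim probe sets that disagreed. The brightest, 239587_at, read 56.2, 69.5 and 56.5 in si-Ctrl, 21.7, 30.8 and 32.4 with si-Med23 and 60.3, 28.8 and 10.9 with si-Elk1. It was lower in si-Med23 without overlap (-1.09 ± 0.54), whereas 206271_at had a difference of 0.75 ± 0.86 and 242667_at one of 0.09 ± 0.70. A single array, control array 2, exceeded the filter level in any of them, and with raised signals the difference was -0.03.

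MYD88, the shared adaptor, was far above the filter level on every array. Its signal was 2481.2, 2595.9 and 2416.2 in si-Ctrl, 3113.0, 4283.3 and 3176.0 with si-Med23 and 2366.1, 2505.2 and 3035.8 with si-Elk1. The si-Med23 arrays all lay above the other 6 arrays, and si-Elk1 overlapped si-Ctrl. The log2 difference was 0.48 ± 0.16 in si-Med23, or 1.40-fold, 0.07 ± 0.16 in si-Elk1 and 0.41 ± 0.16 between the knockdowns. The si-Med23 difference stood above that of 78.5% of tested genes. It turned to -0.02 with hybridization control scaling and to -1.13 with poly-A spike scaling, so the direction of MYD88 in si-Med23 holds only relative to the deposited scaling, quantile normalization or median centring.

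**Figure D2:**
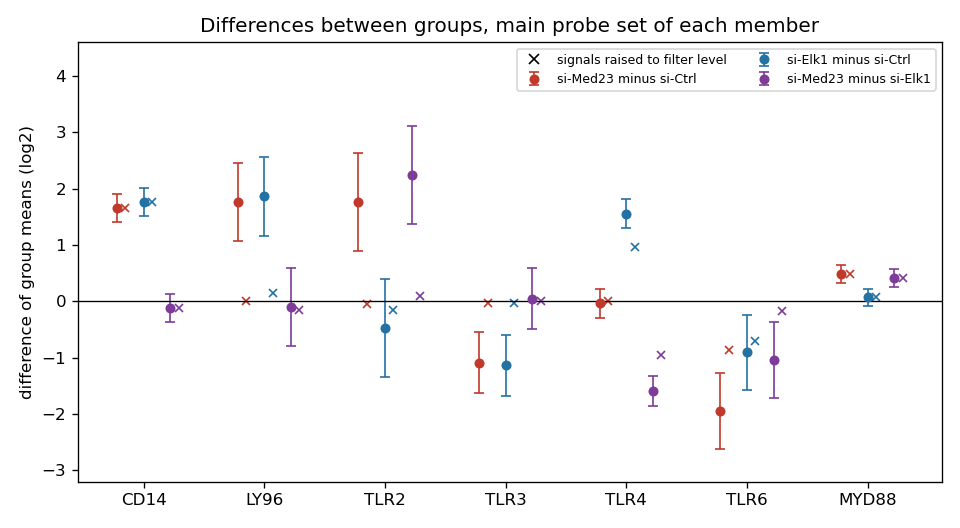
Difference of group means (log2, y axis) for the main probe set of each member in the 3 comparisons; points are fitted differences, bars are 1 SE and crosses are the differences with dim signals raised to the filter level. CD14 stands at 1.65 and 1.77 against si-Ctrl, TLR4 at 1.56 in si-Elk1 and -0.04 in si-Med23, and the crosses of LY96, TLR2 and TLR3 lie near 0.

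**Figure D3:**
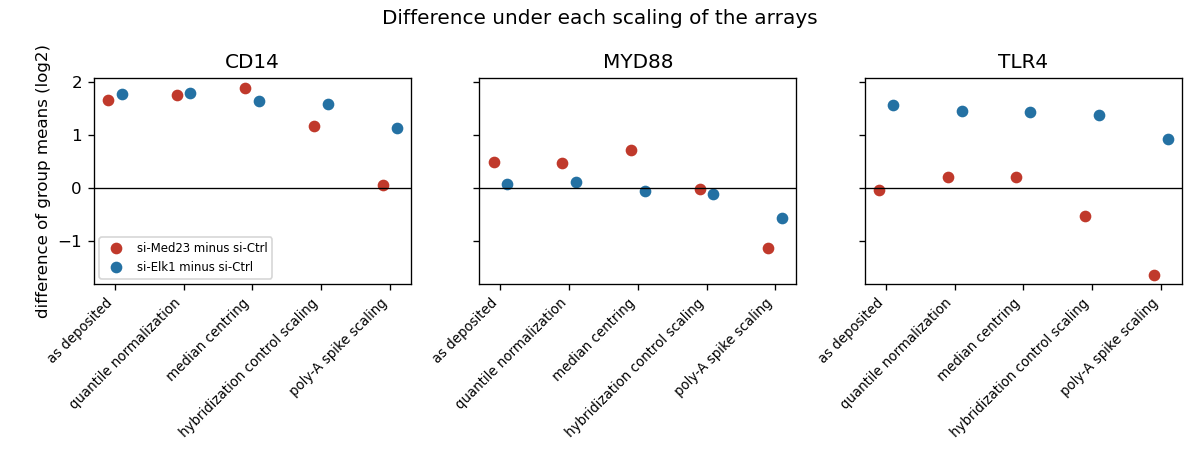
Difference from si-Ctrl (log2, y axis) of CD14, MYD88 and TLR4 in each knockdown as deposited and under 4 other scalings of the arrays (x axis). CD14 in si-Med23 is close to 0, at 0.04, with poly-A spike scaling and well above 0 elsewhere, while MYD88 in si-Med23 goes from 0.48 to -1.13.

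Beyond the members, a list of 88 other genes of the pathway was counted by role in the fit over all genes, where 39.8% of genes passed in si-Med23 (20.3% higher, 19.5% lower) and 4.26% in si-Elk1 (3.07% higher, 1.19% lower). Between the knockdowns 21.7% passed (9.54% higher and 12.2% lower in si-Med23). The split of all genes called turned with the scaling. In si-Med23 it was 2561 higher and 2462 lower as deposited, 4758 and 1681 after median centring, and 409 and 5205 when scaled on the hybridization controls. In si-Elk1 387 were higher and 150 lower as deposited. Median centring gave 239 higher and 326 lower, the hybridization controls 166 and 258, and the poly-A spikes 95 and 4898. Of the 88 listed genes 83 had a probe set of their own, 19 were too dim and 64 were tested. The list was chosen with earlier results of these arrays known, so its counts and p-values describe these arrays and are not independent evidence. In si-Med23 25 rose and 5 fell, 46.9% of those tested, with a median log2 difference of 0.42 beside 0.09 over all genes tested. This balance depended on the scaling: hybridization control scaling gave 10 higher and 17 lower, poly-A spike scaling 0 higher and 52 lower, and median centring 34 higher and 4 lower. In si-Elk1 2 rose and 1 fell, 4.69% of those tested, with a median of 0.15 beside 0.05. Of the 25 genes that rose in si-Med23, 22 stayed above 0 with hybridization control scaling and 7 with poly-A spike scaling, while the 5 that fell stayed below 0 under both scalings and with median centring.

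**Figure D4:**
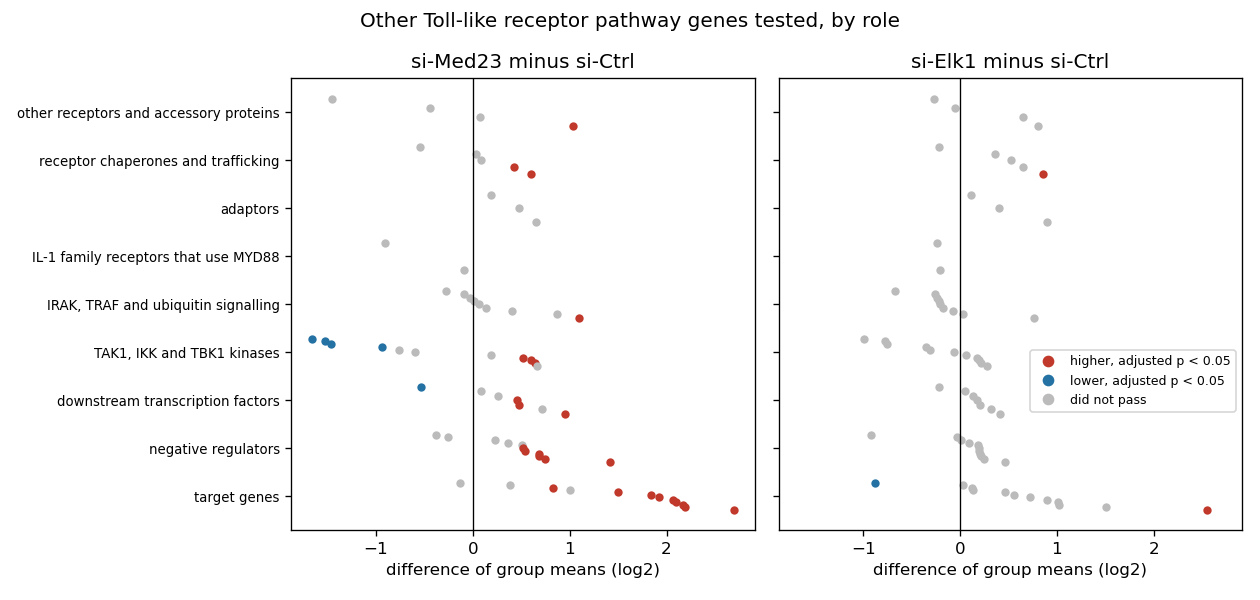
Difference from si-Ctrl (log2, x axis) of the 64 tested pathway genes by role (y axis) in si-Med23 (left) and si-Elk1 (right); each point is a gene, coloured where its limma adjusted p was under 0.05. In si-Med23 target genes and negative regulators lie mostly to the right, and all but one of the 5 genes that fell are in the row of TAK1, IKK and TBK1 kinases.

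The remaining Toll-like receptor genes were dim or did not pass against si-Ctrl. TLR7, TLR8, TLR9 and TLR10 were under the filter level by their mean over the 9 arrays. Single arrays exceeded it for each, with highest signals of 94.4, 71.1, 102.9 and 92.3. TLR1, the other partner of TLR2, had differences of -0.44 ± 0.22 and -0.27 ± 0.22 (limma adjusted p = 0.140 and 0.465). TLR5, the flagellin receptor, read 76.4, 64.5 and 110.7 in si-Ctrl, 41.5, 56.5 and 10.4 with si-Med23 and 123.6, 166.6 and 144.6 with si-Elk1, so that the groups did not overlap. Neither knockdown passed against si-Ctrl (-1.45 and 0.81, limma adjusted p = 0.0562 and 0.359), but the knockdowns differed, with si-Med23 lower (si-Med23 minus si-Elk1 -2.26 ± 0.53, limma adjusted p = 0.0222), or -1.13 with signals raised to the filter level. That call was lost without si-Elk1 oligo A or B (limma adjusted p = 0.0606 and 0.0738). RFTN1, raftlin, an accessory protein of TLR3 and TLR4 uptake, rose in si-Med23 by 1.03 ± 0.23 (limma adjusted p = 0.00981) and was the one gene to pass of 4 receptor and accessory genes tested. Its difference was -0.58 with poly-A spike scaling, and the mean of its probe sets did not pass (0.77, limma adjusted p = 0.144).

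Of 5 tested genes for proteins that fold and move the receptors, 2 rose in si-Med23 and 1 in si-Elk1. At an unadjusted limma p under 0.05 the counts were 2 in si-Med23 and 4 in si-Elk1, all higher. Their median log2 difference was 0.08 in si-Med23 and 0.52 in si-Elk1. CNPY3, a chaperone of Toll-like receptors, and PRKCSH, a glucosidase subunit of the endoplasmic reticulum, rose in si-Med23 by 0.60 ± 0.17 and 0.43 ± 0.13 (limma adjusted p = 0.0205 and 0.0274). In si-Elk1 their differences were 0.66 ± 0.17 and 0.36 ± 0.13, with all arrays above the controls, and did not pass (limma adjusted p = 0.0605 and 0.128), and those between the knockdowns were -0.05 and 0.07 (0.838 and 0.727). CNPY3 lost its call without any one control array or without oligo B or C (limma adjusted p from 0.0510 to 0.0652), and PRKCSH without control array 1 or 3 or without oligo B or C (0.0671 to 0.0901). Both differences were below 0 with poly-A spike scaling, that of PRKCSH also with hybridization control scaling. UNC93B1, which carries endosomal receptors such as TLR3 to their compartment, read 523.1, 436.7 and 495.9 in si-Ctrl, 437.7, 608.2 and 457.8 with si-Med23 and 858.7, 886.1 and 889.6 with si-Elk1. It rose in si-Elk1 by 0.86 ± 0.15 (limma adjusted p = 0.0207), had a difference of 0.04 in si-Med23, and was lower in si-Med23 than in si-Elk1 (-0.82 ± 0.15, limma adjusted p = 0.0108). The call against si-Ctrl was lost without any one of the 6 arrays compared (limma adjusted p from 0.0522 to 0.0781) and with no filter on dim genes (0.0730), the mean of probe sets (0.0527), hybridization control scaling (0.0538) or poly-A spike scaling (a difference of 0.22, 0.469), while that between the knockdowns was kept without any single array.

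None of the 3 other adaptors tested passed in either knockdown, and at an unadjusted limma p under 0.05 the counts were 0 in si-Med23 and 1 in si-Elk1. TIRAP, which bridges MYD88 to TLR2 and TLR4, had differences of 0.19 ± 0.16 in si-Med23 and 0.11 ± 0.16 in si-Elk1, TICAM1, the adaptor TRIF of TLR3 and TLR4, 0.65 ± 0.32 and 0.40 ± 0.32, and SARM1, an inhibitory adaptor, 0.48 ± 0.32 and 0.89 ± 0.32. Of 6 interleukin 1 family receptors that signal through MYD88 only IL1R1 and IL1RAP were bright enough to test, and neither passed, also at an unadjusted limma p under 0.05. Of 9 genes of IRAK, TRAF and ubiquitin signalling 1 rose in si-Med23, the kinase gene IRAK2 (1607.1, 1606.9 and 1660.1 in si-Ctrl, and 3443.3, 2848.0 and 4293.1 in si-Med23), by 1.10 ± 0.17 (limma adjusted p = 0.00276). It was -0.51 with poly-A spike scaling, and the mean of its probe sets did not pass (0.81, limma adjusted p = 0.0771).

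Downstream kinases went both ways in si-Med23. Of 11 genes of the TAK1, IKK and TBK1 group 3 rose and 4 fell, with a median of -0.59. CHUK, the kinase IKK-alpha, fell by 1.53 ± 0.30 on the log2 scale (limma adjusted p = 0.00641), TAB3, a TAK1-binding protein, by 1.65 ± 0.38 (0.0107), TANK, a TBK1 and TRAF scaffold, by 0.93 ± 0.22 (0.0119), and TBK1, the kinase of the interferon branch, which lies outside the naming rule and is given because only 5 genes fell, by 1.46 ± 0.35 (0.0120). The mean over all TAB3 probe sets was -0.53, which did not pass (limma adjusted p = 0.125). None of the 11 passed in si-Elk1, where 2 had an unadjusted limma p under 0.05. There oligo C stood apart from A and B, with CHUK at 380.4 against 820.9 and 812.2 and TAB3 at 247.5 against 719.8 and 639.2, while si-Med23 read 327.6 to 426 for CHUK and 203.5 to 345.5 for TAB3. Among 7 downstream transcription factors IRF1 rose by 0.96 ± 0.19 (limma adjusted p = 0.00684) and IRF3 by 0.47 ± 0.13 (0.0219), RELA, outside the naming rule, was the third to rise (0.45), and CREB1 fell by 0.54 ± 0.13 (0.0141). The differences of IRF1 and IRF3 were below 0 with poly-A spike scaling, and that of IRF3 also with hybridization control scaling. IRF3 lost its call without control array 1 or 2 or oligo B (limma adjusted p from 0.0660 to 0.0699) and CREB1 without control array 3 (0.0576) or with median centring (0.0981).

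Negative regulators of the pathway rose in si-Med23 in 6 of 11 cases, with none lower and a median of 0.52. TNFAIP3, the ubiquitin-editing enzyme A20, rose by 1.42 ± 0.26 (limma adjusted p = 0.00517), its partner TNIP1 by 0.75 ± 0.14 (0.00591) and TOLLIP, which restrains IRAK1, by 0.68 ± 0.15 (0.00980), and all of these differences are below 0 with poly-A spike scaling. The mean over all TNIP1 probe sets did not pass (0.29, limma adjusted p = 0.699), nor did TOLLIP without the probe sets ending in _x_at or _s_at (0.62, limma adjusted p = 0.406). Of 12 target genes of the pathway 9 rose and none fell in si-Med23, with a median of 1.88. The manganese superoxide dismutase gene SOD2 rose by 2.17 ± 0.27 (limma adjusted p = 0.00202), and the chemokine genes CXCL8 and CCL2 rose by 2.07 ± 0.22 and 1.84 ± 0.19 (limma adjusted p = 0.00184 for both). With poly-A spike scaling these calls were lost, with differences of 0.56 for SOD2, 0.46 for CXCL8 and 0.23 for CCL2 (limma adjusted p = 0.130, 0.145 and 0.477). With hybridization control scaling the calls of RFTN1, CNPY3, PRKCSH, IRF1, IRF3, TNIP1 and TOLLIP were lost (limma adjusted p from 0.0922 to 0.901). In si-Elk1 the median of the 12 target genes was 0.64, and 1 rose and 1 fell. At an unadjusted limma p under 0.05 there were 5 higher and 1 lower. All si-Elk1 arrays lay above every control for CXCL8 (3957.8 to 4541 against 2139.9 to 2418.8) and SOD2 (498.4 to 589.9 against 236 to 326). Neither of these genes passed in si-Elk1, where 17.0% of all named genes, dim ones included, were higher without overlap. The chemokine gene CCL20 rose in si-Elk1 by 2.55 ± 0.53 (limma adjusted p = 0.0384) and CCL2 fell by 0.88 ± 0.19 (0.0403). CCL20 read 151, 63.7 and 164.2 in si-Ctrl and 539.3, 831.9 and 724.2 in si-Elk1. In si-Med23 CCL20 read 1250.7, 337.9 and 365.7, also above every control array. The si-Elk1 call of CCL20 was lost without any one of the 6 arrays compared (limma adjusted p from 0.0741 to 0.0984). This call was also lost with no filter on dim genes (limma adjusted p = 0.112) and with hybridization control scaling (0.0549). That of CCL2 was lost without any one control array, si-Elk1 oligo A or C or si-Med23 oligo B (0.0586 to 0.126), with no filter (0.116), with the mean of probe sets (0.0531) and with only the 6 arrays compared (0.0511). Without the filter those of CNPY3, PRKCSH and IRF3 in si-Med23 were lost as well (0.0548, 0.0701 and 0.0587).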

How the data were processed

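Per the submitters' processing notes, RMA and MAS5 were used, with no role or version given; the aligner of probes and the genome build are not given in the sources used here. As deposited, each probe set has a linear intensity per array, which was analysed as log2(intensity + 1). GEO's platform annotation gave exactly 1 gene for 41091 of 54675 probe sets. A gene's brightest probe set by mean stood for it, and genes under log2 6.05 were left out. All 9 arrays entered 1 two-sided fit without a block (lmFit, eBayes; R 4.3.3, limma 3.58.1) with Benjamini-Hochberg adjustment over 12616 genes and a threshold of 0.05. The fit was tested on simulated data with independent noise and no shift of whole arrays, so that test does not bear on the choice of scaling. Standard errors of dim members come from the same fit over all probe sets. No detection calls were used. The members and lists were chosen with earlier results of these data known. The text names all members, every other Toll-like receptor and adaptor, MED23 and ELK1, and the 5 genes closest to CD14 by Pearson r. Per pathway role it names up to 3 genes with the smallest p among those passing in si-Med23 and up to 2 in si-Elk1. Genes outside this rule (TBK1, RELA, IL1R1, IL1RAP, PTPRC, SPI1, CD163, FCER1G and those singled out between the knockdowns) were chosen after their values were seen. Promoters of 6 of the 7 members were found in the RefSeq table. Alternatives were other filters, probe set choices, scalings, a pseudocount of 16, raised dim signals, fewer arrays and a replicate block.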

Additional observations from a re-analysis of the deposited data

Results flagged for a closer look

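Among the pathway genes that are not members, 17 differed between the knockdowns themselves (si-Med23 minus si-Elk1, limma with Benjamini-Hochberg adjustment over all tested genes, where 21.7% of genes passed). Of these 14 were higher in si-Med23. The largest difference was that of the monocyte chemokine gene CCL2 (2.72), which had opposite signs against si-Ctrl in the knockdowns. The other target genes were IL6 (1.63), CXCL2 (1.37), CXCL1 (1.20), CXCL8 (1.17) and SOD2 (1.16). Signalling genes were IRAK2 (1.31), TRAF3 (0.73), IRAK1 (0.65) and the transcription factor gene IRF1 (0.64). The accessory gene RFTN1 differed by 1.09, and the negative regulators TNFAIP3, TNIP1 and TRAFD1 by 0.95, 0.73 and 0.50. Higher in si-Elk1 were TLR5 (-2.26), TANK (-0.997) and UNC93B1 (-0.82). CCL2, CXCL2, CXCL8, IRAK2 and UNC93B1 kept their call without any single array, and the other 12 lost it without at least one array. With poly-A spike scaling CXCL8 (0.19, limma adjusted p = 0.533), CXCL2 (0.40, 0.224), IRAK2 (0.34, 0.212), IL6 (0.66, 0.0933), CXCL1 (0.23, 0.488), SOD2 (0.19, 0.601) and RFTN1 (0.12, 0.700) no longer passed. IRAK1, TRAF3, IRF1, TNFAIP3, TNIP1 and TRAFD1 went below 0 with it and did not pass either (limma adjusted p from 0.0937 to 0.962). Calls lost with hybridization control scaling were those of IRAK1, TRAF3, IRF1, TNFAIP3 and TRAFD1 (limma adjusted p from 0.0919 to 0.398). With the mean of probe sets those of RFTN1, IRAK1, IRF1, TNIP1 and TRAFD1 were lost (limma adjusted p from 0.0714 to 0.711). Hybridization control scaling gave 9 pathway genes higher and 11 lower in place of 14 and 3, and poly-A spike scaling 1 higher and 43 lower.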

How the results depend on the processing

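The CD14 difference from si-Ctrl stayed above 0 under every alternative tried, but in si-Med23 it was close to 0 with poly-A spike scaling. It was 1.16 (hybridization control scaling) and 0.042 (poly-A spike scaling) in si-Med23 and 1.13 (poly-A) in si-Elk1, and without any single array it was 1.41 to 1.86 and 1.66 to 1.96. Between the knockdowns it was 0.25 with median centring, -1.09 with poly-A scaling and -0.36 to 0.10 without single arrays. With hybridization control scaling PRKCSH (-0.072), IRF3 (-0.024) and MYD88 (-0.016) turned in si-Med23. With poly-A scaling so did RFTN1 (-0.58), CNPY3 (-1.01), PRKCSH (-1.18), IRAK2 (-0.51), IRF1 (-0.66), IRF3 (-1.14), TNFAIP3 (-0.19), TNIP1 (-0.86), TOLLIP (-0.93) and MYD88 (-1.13), and, against si-Elk1, IRAK1 (-0.32), TRAF3 (-0.24), IRF1 (-0.34), TNFAIP3 (-0.017), TNIP1 (-0.24), TRAFD1 (-0.48) and MYD88 (-0.56). These scalings shift all genes alike, and which scaling is right was not tested.

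For si-Med23 against si-Ctrl, poly-A scaling called 11898 genes (18 higher, 11880 lower) and 52 pathway genes (0 higher, 52 lower), and single arrays left out gave 3174 to 5884 and 22 to 36, the lowest total without control array 3. For si-Elk1 against si-Ctrl, genes called were 119 with no filter, 937 with the stricter filter, 271 with the mean of probe sets, 318 without _x_at and _s_at probe sets, 4993 with poly-A scaling (95 higher, 4898 lower), 855 with raised signals and 162 with the replicate block, and 109 to 498 without single arrays. Pathway genes called were 0 with no filter, 7 with the stricter filter, 1 with hybridization control scaling, 17 with poly-A scaling, 8 with raised signals, 5 with only the 6 arrays, 0 with the replicate block and 0 to 5 without single arrays. The count was 0 by limma without any one control array or si-Elk1 oligo A or C, while 11 to 17 genes had an unadjusted p under 0.05, as did 14 with no filter and 14 with the block.

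Between the knockdowns, genes called were 979 with no filter, 1783 with the mean of probe sets, 5238 with median centring (4685 higher, 553 lower), 4302 with hybridization control scaling (359 higher, 3943 lower), 10252 with poly-A scaling (33 higher, 10219 lower), 1074 with only the 6 arrays and 1319 with the block. Pathway genes were 7 with no filter, 7 without _x_at and _s_at probe sets, 35 with median centring, 44 with poly-A scaling, 9 with only the 6 arrays and 11 with the block. Single arrays left out gave 769 (without si-Elk1 oligo A) to 4496 (without oligo C) genes and 5 to 28 pathway genes.

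The samples share only a replicate number: deviations of same-numbered arrays correlated at -0.18 to 0.05 over 9 pairs, and those of other pairs at -0.06 to 0.12 over 18, so the numbers were not taken to pair samples. With the replicate block the si-Elk1 calls of UNC93B1, CCL20 and CCL2 (limma adjusted p = 0.0696, 0.0696 and 0.0998) and the si-Med23 call of PRKCSH (0.0531) did not pass. Signal over background limits the 5 dim members, and the alternatives for single pathway genes were added after seeing the data.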
